A study of Mus musculus with 8 samples.

Results

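The genes described here are those of cholesterol synthesis and of the control and movement of sterols, measured in a line of mouse hepatocytes, AML12, with and without transfected v-erbA. The v-erbA protein is an oncoprotein of avian erythroblastosis virus, a mutated form of the thyroid hormone receptor that acts as a repressor. The set was named as 28 genes, and 26 of them had at least 1 probe set under their own symbol in the platform annotation, with 59 probe sets in all. Expression of Acat2 and Soat1 was not analysed here. For each gene the probe set with the highest mean signal over all arrays was used, and the others served as a check. All 26 passed the filter on dim signals, which left 12015 genes of the 18192 with a probe set.

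The 8 oligonucleotide arrays covered every combination of line, treatment and time, with 1 array for each. They were v-erbA-transfected AML12 cells with 1 µM retinoic acid (RA) at 24 h, the same cells untreated at 24 h, with RA at 3 h and untreated at 3 h, and AML12 cells without v-erbA under the same 4 conditions. Times follow the sample titles, since for 3 of the samples titled 24 h another field names 3 h. Whether the transfected line is a clone or a pool is not given in the sources used here, and a line with empty vector was not analysed here, so the effect of v-erbA cannot be told apart from that of transfection or clone. Transcripts of v-erbA itself were not analysed here.

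Cholesterol is built from acetyl-CoA through mevalonate, isoprenoid diphosphates, squalene and lanosterol. Most genes of the route are switched on together by sterol regulatory element-binding proteins (SREBPs), membrane-bound transcription factors that Scap escorts from the endoplasmic reticulum to the Golgi apparatus for activation when sterols are scarce. When sterols are plentiful, Insig proteins hold Scap and SREBP in the endoplasmic reticulum. Hepatocytes are a main site of this synthesis in the body.

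Promoters of 4 genes that fell in the v-erbA line, and of 1 that did not pass the test, are shown for the elements that SREBPs are known to use. SREBPs bind sterol regulatory elements and act with the factors NF-Y and Sp1 on neighbouring CCAAT and GC boxes. The stretches below are the 200 bases before the transcription start in RefSeq (GRCm38.p6), 5′ to 3′ on the gene's strand, with matches on either strand to the element TCACNCCAC or its core CACNCCAC, to CCAAT and to GGGCGG in capitals. They come from chr5:28071212-28071411 on the plus strand for Insig1, chr13:119690151-119690350 on the plus strand for Hmgcs1, chr13:8885406-8885605 on the plus strand for Idi1, chr5:4104698-4104897 on the minus strand for Cyp51 and chrX:8193513-8193712 on the minus strand for Ebp, the gene that did not pass.
Insig1: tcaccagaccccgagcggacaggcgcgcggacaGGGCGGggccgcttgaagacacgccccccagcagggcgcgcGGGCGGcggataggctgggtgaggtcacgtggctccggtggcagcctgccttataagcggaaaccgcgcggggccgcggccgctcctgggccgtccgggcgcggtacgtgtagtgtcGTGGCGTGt
Hmgcs1: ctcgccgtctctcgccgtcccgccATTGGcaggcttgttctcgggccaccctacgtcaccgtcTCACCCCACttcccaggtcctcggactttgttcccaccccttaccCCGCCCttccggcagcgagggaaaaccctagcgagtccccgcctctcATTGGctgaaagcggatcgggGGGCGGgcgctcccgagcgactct
Idi1: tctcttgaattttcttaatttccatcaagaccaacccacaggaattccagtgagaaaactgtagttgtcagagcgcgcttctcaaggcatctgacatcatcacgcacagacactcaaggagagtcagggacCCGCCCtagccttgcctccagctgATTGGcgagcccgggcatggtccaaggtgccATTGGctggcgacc
Cyp51: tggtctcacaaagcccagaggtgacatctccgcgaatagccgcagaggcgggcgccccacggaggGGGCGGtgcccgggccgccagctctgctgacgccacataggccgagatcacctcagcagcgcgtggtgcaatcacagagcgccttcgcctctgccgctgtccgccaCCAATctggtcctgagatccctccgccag
Ebp: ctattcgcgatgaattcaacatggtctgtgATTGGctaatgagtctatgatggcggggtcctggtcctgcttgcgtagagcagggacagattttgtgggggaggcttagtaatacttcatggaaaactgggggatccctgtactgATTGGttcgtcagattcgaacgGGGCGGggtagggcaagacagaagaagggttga

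The promoter table held 29 windows for 23 of the 28 genes, each of 300 bases with 250 before and 50 after the start. The longer element TCACNCCAC was found in 1 gene, Hmgcs1, and the core CACNCCAC, which lies within it, in Acat2, Hmgcs1 and Insig1. Of all 32851 windows 1.24% held the longer element and 6.24% the core. Other variants of the element were not searched for. CCAAT was found in 21 of the 29 windows (72.4%), against 37.4% of all 32851 windows in the table. GGGCGG was found in 24 of the 29 (82.8%), against 35.7%. The table also holds many windows of genes that were not on the arrays. Counted by gene over the 9744 tested genes with a promoter, 43.0% held CCAAT, 66.6% GGGCGG and 7.80% the core. Of the 15 sterol genes that were lower in the v-erbA line and had a promoter, 14 held CCAAT, 14 held GGGCGG and 2 the core. Of the 6 others 6 held CCAAT, 5 held GGGCGG and 0 the core. CCAAT and GGGCGG were thus present in nearly all of both groups. The half-site AGGTCA, to which thyroid hormone and retinoic acid receptors bind, was found in 3 of the 15 (Hmgcs1, Dhcr7 and Insig1), in 0 of the 6 and in 15.5% of the tested genes. Matches describe these letters in these windows and are not measured binding.

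The arrays held signals on a common linear scale, with array medians between 71.2 and 76.1 units, and the brightest probe sets of the 26 genes had 120 units or more on every array. Hepatocyte markers were bright only in part. Over the arrays of both lines Alb averaged 9963 units and Ttr 10770 units, but Tat averaged 123 units and Apoa2 132 units. In all, 7 of 12 hepatocyte markers exceeded the pooled median of 73.5 units on all 8 arrays, with 0 of 12 below it on all. Of the other cell types that a culture could hold, 4 of 8 fibroblast markers (Col3a1, Lum, Pdgfra, Pdgfrb), 3 of 6 macrophage markers (Ptprc, Cd68, Clec4f) and 3 of 5 endothelial markers (Pecam1, Cdh5, Stab2) lay below that median on every array. Above it on all 8 arrays were 1 of the 8 fibroblast, 2 of the 6 macrophage and 0 of the 5 endothelial markers. The summed macrophage list was 2167 to 2993 units in the v-erbA line and 3374 to 5459 units in AML12, and most of it was Cd14 (mean 3148 units). The fibroblast sum was 488 to 573 units in the v-erbA line and 416 to 482 units in AML12, and the endothelial sum 112 to 278 and 174 to 255 units. No scan dates or other batches were given in the sources used here. Over the tested genes, line accounted for 35.1% of the variance between arrays, time for 54.3% and treatment for 3.23%.

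Most of the sterol genes were lower in the v-erbA line. Of the 26, 19 fell, 1 rose and 6 did not pass (limma adjusted p under 0.05, additive model over 8 arrays). Among all tested genes 26.9% fell and 26.5% rose, so calls were common in both directions, and 73.1% of the sterol genes fell. The median log2 difference was -0.43 over the 26 genes and 0.01 over all genes tested. At a size of -0.5 or lower 12 of the 26 fell, against 8.60% of all genes. All 4 v-erbA arrays lay below all 4 AML12 arrays for 15 of the 26 genes, against 19.5% of all genes, and above them for 1, against 18.7%. In 4 of 4 matched pairs 20 of the 26 genes were lower and 2 higher (Npc2 and Ggps1), against 31.4% and 32.6% of all genes. With 1 array per combination, the p-values rest on departures of these 8 arrays from the additive model, with spread shared across genes by limma. Such departures may be technical or come from factors acting together, and spread between replicate cultures was not measured. In such bulk RNA fewer cells with a transcript and less of it per cell cannot be told apart. Changes are differences of log2(signal + 19.9) ± SE of the fit over 4 pairs of arrays, which understate the change of dim genes.

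**Figure D1:**
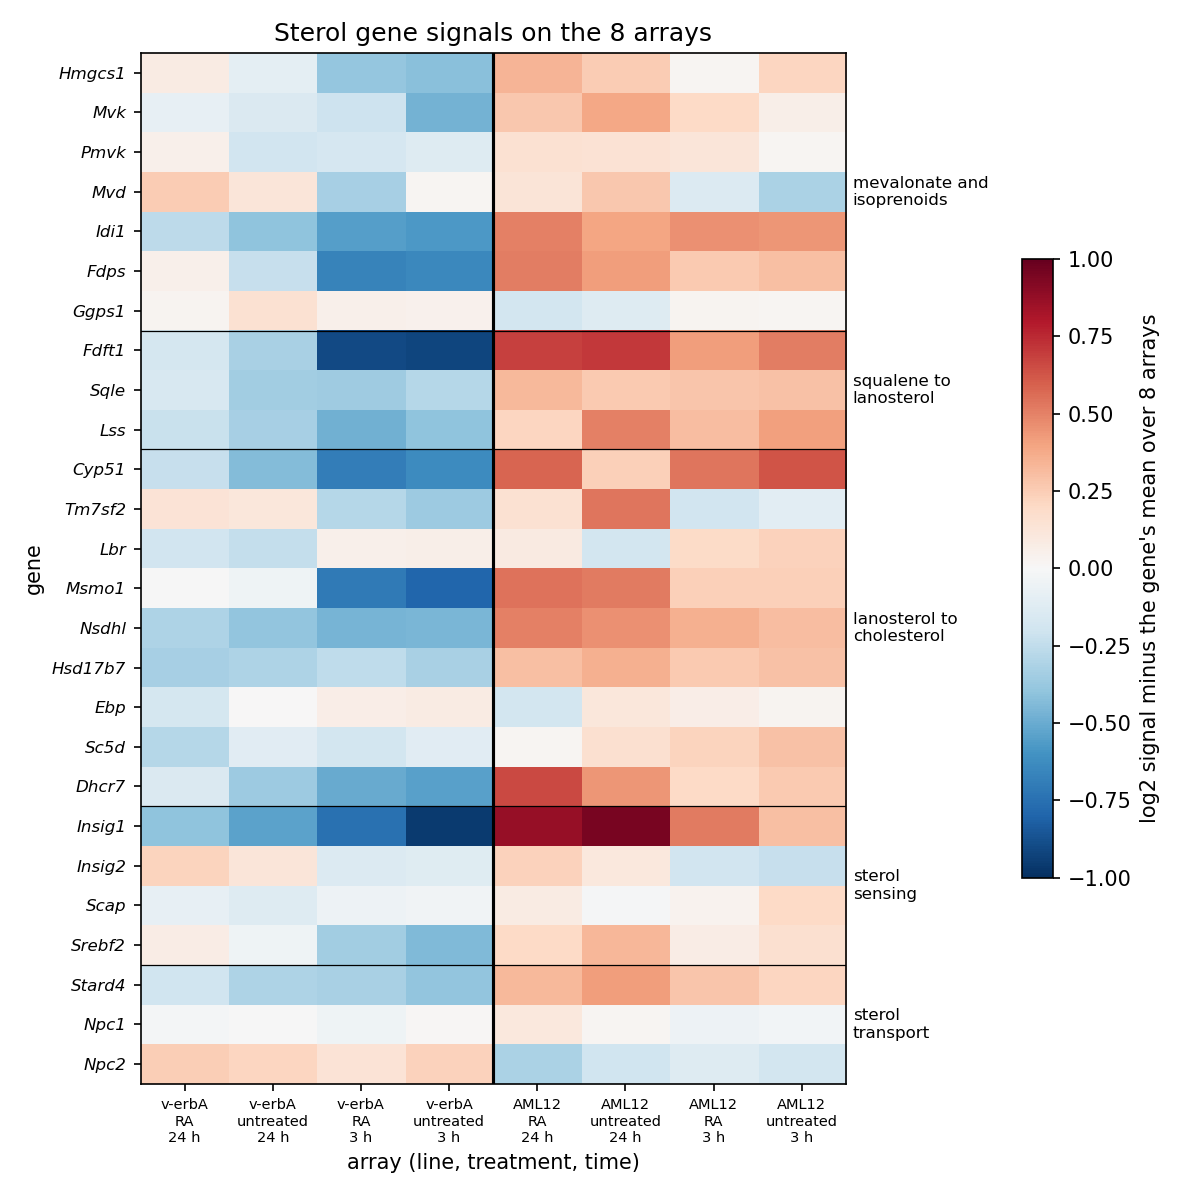
Signals of the 26 sterol genes on the 8 arrays, as log2 of signal plus offset minus the mean of the gene over all arrays, with genes in rows grouped by role and 1 array per column. Blue cells fill most of the left 4 columns (v-erbA line) and red cells most of the right 4 (AML12), while Npc2 runs the other way and Ebp and Npc1 stay pale.

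The largest decrease among the 26 genes was that of Insig1, which encodes the sterol-regulated retention protein. In the v-erbA line Insig1 had 212 and 163 units with RA (24 h and 3 h) and 192 and 138 units untreated, against 542 and 420 units with RA and 572 and 359 units untreated in AML12. All 4 v-erbA arrays were below the lowest AML12 array, and at both times the gap was more than the spread within a line. The log2 difference was -1.32 ± 0.07, a 2.50-fold decrease (limma adjusted p = 9.91e-07). Its relative Insig2, which has the same retaining role but whose transcription is known to respond to other signals, had 1132 and 880 units with RA and 1055 and 889 units untreated in the v-erbA line, against 1143 and 847 with RA and 1046 and 824 untreated in AML12. The lines overlapped, and Insig2 differed by 0.04 ± 0.04 (95% interval -0.06 to 0.14, limma adjusted p = 0.473), against an interval of -1.47 to -1.17 for Insig1.

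The other sensing genes fell by less. Srebf2, which encodes the SREBP that acts mainly on cholesterol genes, had 624 and 461 units with RA (24 h and 3 h) and 574 and 430 units untreated in the v-erbA line, against 682 and 623 units with RA and 750 and 663 units untreated in AML12. The highest v-erbA array just exceeded the lowest AML12 array, and within each pair the v-erbA value was lower. Srebf2 fell by 0.38 ± 0.07 (limma adjusted p = 0.00173). Scap, the escort protein, fell by 0.15 ± 0.05 (limma adjusted p = 0.0284), a call that was lost without any one of 5 of the arrays, with an adjusted p of 0.0718 to 0.0954.

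Of the 7 genes of the mevalonate and isoprenoid steps 5 fell and 0 rose. Idi1, the isopentenyl diphosphate isomerase, had 905 and 738 units with RA (24 h and 3 h) and 819 and 725 units untreated in the v-erbA line, against 1558 and 1501 units with RA and 1441 and 1487 units untreated in AML12. The AML12 arrays were nearly level and all 4 exceeded every v-erbA array. Idi1 fell by 0.90 ± 0.06 (limma adjusted p = 2.93e-06). Fdps, the farnesyl diphosphate synthase, had 1244 and 750 units with RA and 1019 and 760 units untreated in the v-erbA line, against 1715 and 1441 units with RA and 1614 and 1483 units untreated in AML12. It fell by 0.74 ± 0.08 (limma adjusted p = 8.82e-05), and its v-erbA arrays were higher at 24 h than at 3 h. Mvk, which phosphorylates mevalonate, fell by 0.45 ± 0.08. Hmgcs1, the cytosolic synthase of hydroxymethylglutaryl-CoA, fell by 0.41 ± 0.07 with overlapping lines (1281 to 1820 units in the v-erbA line and 1737 to 2176 units in AML12). Pmvk, the next kinase, fell by 0.21 ± 0.07 (limma adjusted p = 0.0229), a call lost without the AML12 array with RA at 3 h (0.0672), the v-erbA array untreated at 24 h (0.0866) or the v-erbA array with RA at 3 h (0.0836).

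The 2 genes of these steps that did not pass were Mvd and Ggps1. Mvd, the mevalonate diphosphate decarboxylase, ranged from 122 to 193 units in the v-erbA line and from 123 to 195 units in AML12, with a difference of 0.03 ± 0.10. Its second probe set, of a type that can match related transcripts, gave -0.46 ± 0.07 and lay between 101 and 129 units in the v-erbA line against 157 to 178 units in AML12. Ggps1, which makes geranylgeranyl diphosphate for other isoprenoids rather than for sterols, differed by 0.13 ± 0.07 (limma adjusted p = 0.120), and its other probe sets gave 0.21, 0.15 and -0.26. For both genes the direction therefore depended on the probe set.

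All 3 genes from squalene to lanosterol fell. Fdft1, the squalene synthase that commits farnesyl diphosphate to sterols, had 701 and 416 units with RA (24 h and 3 h) and 631 and 411 units untreated in the v-erbA line, against 1290 and 1066 units with RA and 1312 and 1145 units untreated in AML12. Every v-erbA array was below every AML12 array. Fdft1 fell by 1.16 ± 0.09, or 2.24-fold (limma adjusted p = 8.12e-06). The squalene epoxidase Sqle fell by 0.58 ± 0.05, with 1353 to 1556 units in the v-erbA line and 2096 to 2185 units in AML12. The lanosterol synthase Lss fell by 0.72 ± 0.07, with 266 to 323 units in the v-erbA line and 444 to 548 units in AML12. Both were apart in all arrays.

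Of the 9 genes from lanosterol to cholesterol 7 fell and 0 rose. Cyp51, the lanosterol demethylase, had 456 and 325 units with RA (24 h and 3 h) and 393 and 341 units untreated in the v-erbA line, against 816 and 786 units with RA and 638 and 842 units untreated in AML12. It fell by 0.99 ± 0.11, or 1.99-fold (limma adjusted p = 8.88e-05), the untreated AML12 array of 24 h being the lowest of its line. Nsdhl, the sterol dehydrogenase of the demethylation complex, had 693 and 619 units with RA and 650 and 621 units untreated in the v-erbA line, against 1230 and 1106 units with RA and 1188 and 1073 units untreated in AML12. Nsdhl gave nearly the same gap in each pair, between -0.85 and -0.77, and fell by 0.81 ± 0.04 (limma adjusted p = 9.91e-07). Its partners in that complex, the methyl oxidase Msmo1 and the ketoreductase Hsd17b7, fell by 0.77 ± 0.08 and 0.61 ± 0.05.

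The last reductase, Dhcr7, fell by 0.78 ± 0.06 and ranged from 267 to 359 units in the v-erbA line, against 462 to 641 units in AML12. The desaturase Sc5d fell by 0.35 ± 0.05. Lbr and Tm7sf2 encode the 2 sterol C14 reductases, of which Lbr is also a receptor for lamin in the nuclear envelope. Lbr fell by 0.16 ± 0.05 (limma adjusted p = 0.0273), with a call lost without any one of 5 arrays (adjusted p of 0.0639 to 0.0892). Tm7sf2 differed by -0.20 ± 0.08 (limma adjusted p = 0.0516) and passed without the AML12 array with RA at 24 h (0.0129) or the v-erbA array with RA at 3 h (0.0365), and with matched pairs as a block (0.0464). Ebp, the isomerase between them and Sc5d, had 3673 and 4368 units with RA (24 h and 3 h) and 4175 and 4397 units untreated in the v-erbA line, against 3670 and 4354 units with RA and 4501 and 4235 units untreated in AML12. The lines overlapped fully, and Ebp differed by -0.01 ± 0.05 (95% interval -0.13 to 0.11).

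**Figure D2:**
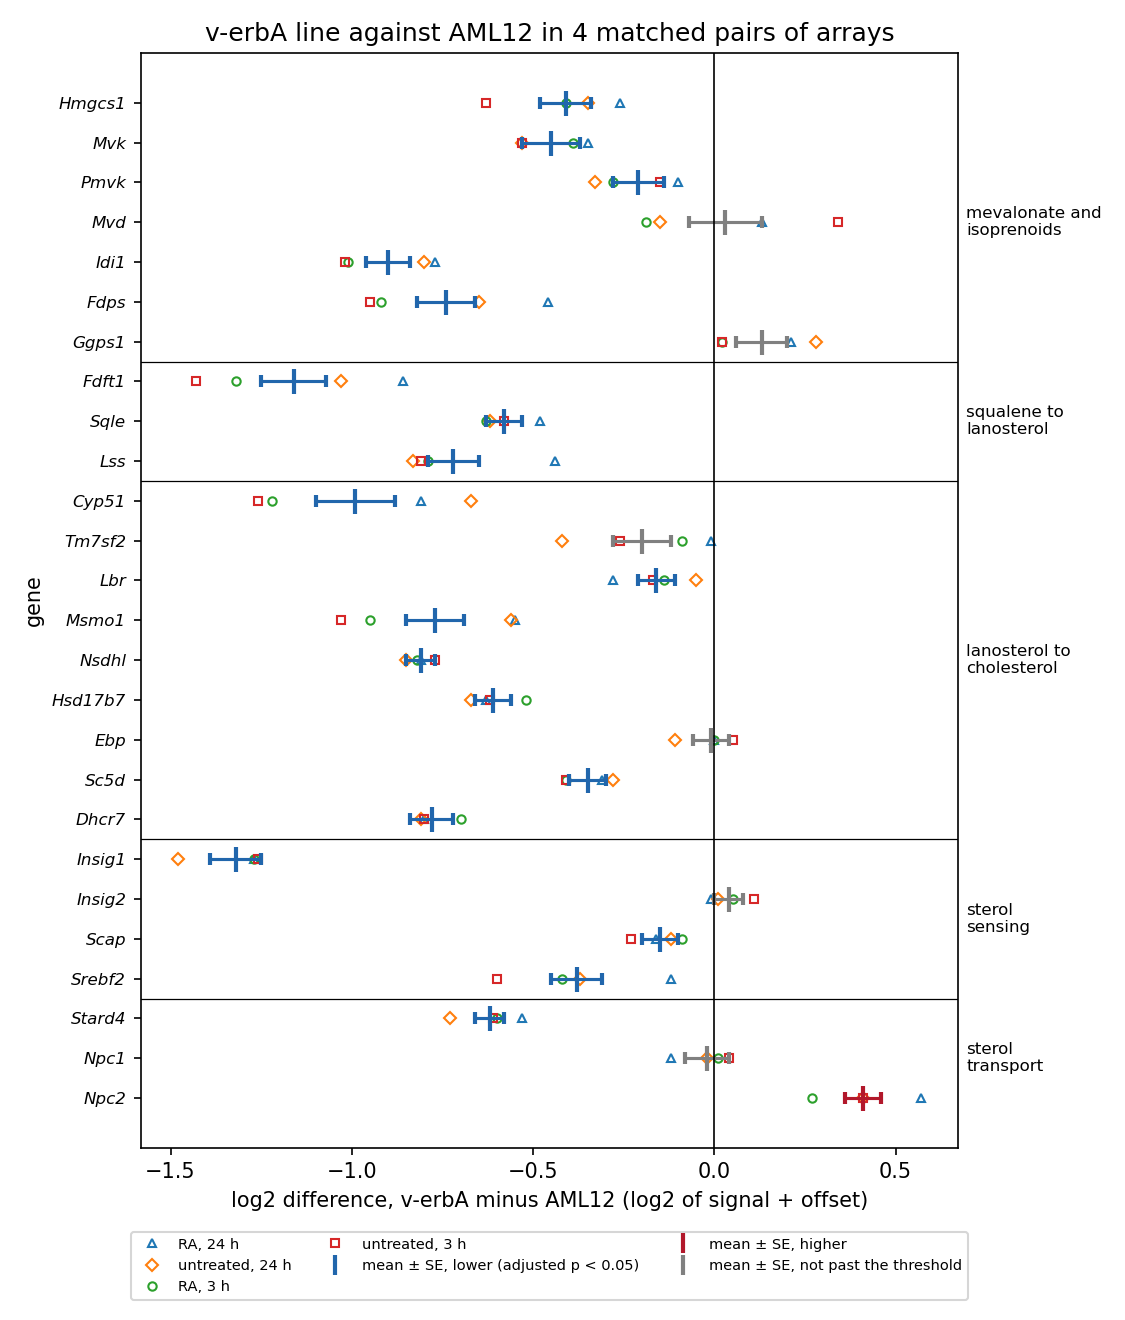
Log2 difference of each sterol gene, v-erbA minus AML12, in the 4 pairs that share treatment and time (open symbols) with the mean ± SE of the limma fit (bars), genes grouped by role. Blue bars mark the 19 genes that fell, the red bar Npc2, and grey bars the 6 that did not pass, and for Fdft1, Cyp51 and Msmo1 the 3 h pairs lie left of the 24 h pairs.

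Genes of sterol transport did not move as one. Stard4, a cytosolic sterol carrier, had 1429 and 1313 units with RA (24 h and 3 h) and 1325 and 1248 units untreated in the v-erbA line, against 2068 and 2000 units with RA and 2208 and 1911 units untreated in AML12, and fell by 0.62 ± 0.04 (limma adjusted p = 4.82e-06). Npc2, the lysosomal protein that hands cholesterol to Npc1, had 3326 and 3070 units with RA and 3251 and 3274 units untreated in the v-erbA line, against 2241 and 2549 units with RA and 2438 and 2457 units untreated in AML12. It was the gene of the set that rose, by 0.41 ± 0.05 or 1.33-fold (limma adjusted p = 7.49e-05), with all v-erbA arrays above all AML12 arrays. Npc1, the lysosomal membrane exporter, ranged from 270 to 281 units in the v-erbA line and from 268 to 300 units in AML12 and differed by -0.02 ± 0.06 (95% interval -0.15 to 0.11).

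**Figure D3:**
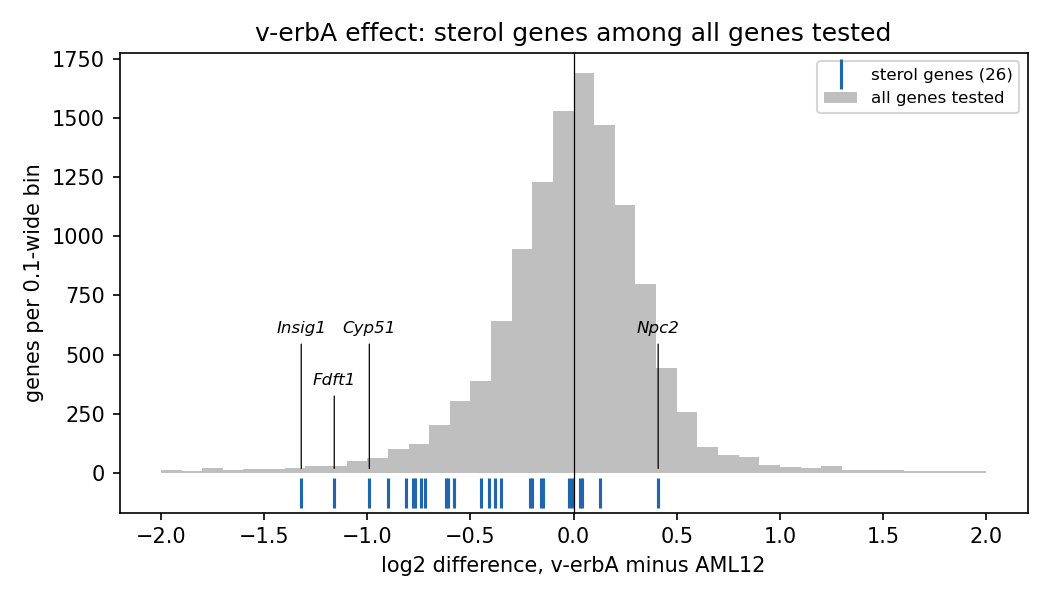
Number of tested genes per bin of log2 difference, v-erbA minus AML12 (grey bars, 81 genes outside -2 to 2 not drawn), with a blue tick under the axis for each of the 26 sterol genes. The ticks run from -1.32 (Insig1) to 0.41 (Npc2) and most lie left of 0, where the bars peak.

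Other probe sets mostly pointed the same way. Of 33 other probe sets in 17 genes 9 were dim and 24 were fitted, in a fit of all 21319 named probe sets above the dim level. Genes called lower had 16 of them, of which 13 fell, 15 had a negative difference and 0 rose. Of all 21319 fitted probe sets 5392 fell and 5708 rose. Stard4 fell by 0.78 and 0.93 in its other probe sets, Idi1 by 1.16, Fdft1 by 1.19 and Hsd17b7 by 0.47 and 0.54. Sizes varied within genes, with Lss at -0.32 and -0.93 and Cyp51 at -0.55. The Lss probe set at -0.93 had 23.1 to 30.6 units in the v-erbA line and 33.8 to 106 units in AML12. The Cyp51 probe set at -0.55 had 40.2 to 72.1 units in the v-erbA line and 72 to 109 units in AML12. Both passed the dim filter through AML12 arrays alone, so their calls among the 13 are not independent support. Those that did not pass were the second probe set of Mvk (-0.11) and both other probe sets of Sc5d (-0.23 and 0.02). Of the 2 other fitted probe sets of Npc2, 1 rose by 0.31 and 1 differed by 0.23. The brightest probe sets of Hmgcs1, Lss and Hsd17b7 are of types that can match related transcripts, and for each of them a probe set without that mark fell as well, by 0.41, 0.32 and 0.47.

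The gap between lines was also examined at each time. At 24 h 16 of the 26 fell and 2 rose (Npc2 and Ggps1), against 21.5% and 22.2% of all genes, and at 3 h 16 fell and 1 rose, against 21.1% and 16.2%. For 13 of the 19 genes that fell overall the decrease was smaller at 24 h, and the same share among all genes that fell was not counted. Among the 13 are Pmvk, Scap and Mvk, whose gaps differed between times by only 0, 0.02 and 0.03. Over all 26 genes the difference, v-erbA effect at 24 h minus that at 3 h, was positive for 15 and negative for 11. Its median was 0.02, against 0.03 over all genes tested. The largest such differences were those of Cyp51, Msmo1, Fdft1 and Fdps. Msmo1 had 1592 units with RA and 1546 untreated at 24 h and 967 and 909 units at 3 h in the v-erbA line, against 2335 and 2297 units at 24 h and 1883 and 1882 units at 3 h in AML12. Msmo1 fell by 0.56 ± 0.05 at 24 h and by 0.99 ± 0.05 at 3 h, Fdft1 fell by 0.95 and 1.38, Cyp51 fell by 0.74 and 1.24 and Fdps fell by 0.55 and 0.93. Insig1 fell by 1.38 and 1.26 and Nsdhl fell by 0.83 and 0.79, so their decreases were not smaller at 24 h. The test of the difference between times passed for 0 of the 26 with limma, with 5 at an unadjusted p under 0.05 and Msmo1 lowest (0.43 ± 0.07, adjusted p = 0.0858). It passed for 0.0999% of all genes, and 1086 of the 12015 tested genes had an unadjusted p under 0.05. Without the AML12 array with RA at 24 h it passed for Msmo1 (0.0270) and Cyp51 (0.0459), and without the untreated AML12 array of 24 h for Msmo1 (0.0388).

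RA did not move any of these genes past the threshold. Over both lines and times 0 of the 26 passed with limma, against 1.17% of all genes, and 1 gene, Sc5d, had an unadjusted p under 0.05 (smallest adjusted p = 0.482). The differences, RA minus untreated, ran from -0.11 (Ebp and Sc5d) to 0.12 (Insig1), with a median of 0.03 against 0.00 over all genes. The 95% intervals of the 26 genes together spanned -0.26 to 0.35, and the precision is limited by the 8 arrays. Over all genes 98 rose and 43 fell, or 138 and 31 with each array centred on its median. Of the 12015 tested genes 1240 had an unadjusted p under 0.05 for RA. In the v-erbA line the differences ran from -0.12 (Sc5d) to 0.17 (Mvk and Insig1) and in AML12 from -0.24 (Tm7sf2) to 0.12 (Cyp51). The limma test passed for 0 of the 26 in the v-erbA line, against 0% of all genes. At an unadjusted p under 0.05 were 0 of the 26 and 400 of the 12015 tested genes. In AML12 the test passed for 0 of the 26, against 0.308% of all genes. There 1 of the 26 and 1094 of all tested genes had an unadjusted p under 0.05.

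The question that the design names, whether RA responses differ with v-erbA, had no call among the sterol genes. The limma test of that difference passed for 0 of the 26 and for 0% of all genes. At an unadjusted p under 0.05 were 0 of the 26 and 201 of the 12015 tested genes. The differences, response in the v-erbA line minus response in AML12, ran from -0.13 (Mvd) to 0.29 (Tm7sf2), and their 95% intervals reached from -0.59 to 0.58. By time, RA changes ran from -0.24 (Ebp) to 0.28 (Cyp51) at 24 h and from -0.09 (Mvd) to 0.21 (Insig1) at 3 h. With limma 0 of the 26 passed at 24 h and 0 at 3 h, against 1.2% and 0.283% of all genes. At 24 h 4 of the 26 and 1688 of the 12015 tested genes had an unadjusted p under 0.05. At 3 h 1 of the 26 and 714 of all tested genes did. The limma test between times passed for 0 of the 26 and for 0.0166% of all genes. In that test 1 of the 26 and 905 of all tested genes had an unadjusted p under 0.05. Ebp came closest at 24 h (limma adjusted p = 0.0531), with 3673 units with RA against 4175 untreated in the v-erbA line and 3670 against 4501 units in AML12.

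Time in culture moved several sterol genes upwards. At 24 h 11 of the 26 were higher than at 3 h and 1 was lower, against 19.5% and 15.2% of all tested genes, and the median was 0.12 against 0.03. Over all genes 2341 rose and 1823 fell, but 1835 rose and 2250 fell with arrays centred on their medians, and 2064 rose and 2086 fell after quantile normalization. With time 5 of 12 hepatocyte markers rose and 1 fell (median 0.60), with sums of 29374 to 44652 units at 24 h and 27141 to 31698 units at 3 h. Of 3 tested macrophage markers 2 fell and Cd14 rose (sums of 2397 to 5459 units at 24 h and 2167 to 4305 units at 3 h), and of 4 tested fibroblast markers Col1a1 fell by 2.34 and Acta2 rose by 1.26 (sums of 416 to 573 units at 24 h and 427 to 555 units at 3 h). Col1a1 averaged 50.5 units over all arrays, below the pooled median of 73.5 units, so its change is that of a dim gene. The part of these markers in the sterol gene results was not tested. The largest rises were those of Msmo1 (0.51 ± 0.08), the reductase Tm7sf2 (0.47 ± 0.08), Fdft1 (0.45 ± 0.09) and Insig1 (0.44 ± 0.07), each higher in 4 of 4 pairs. Tm7sf2 had 505 and 496 units at 24 h in the v-erbA line (RA and untreated) and 510 and 671 units in AML12, against 372 and 351 units at 3 h in the v-erbA line and 398 and 424 units in AML12. All 4 arrays of 24 h lay above all 4 of 3 h for Tm7sf2, Mvd and Insig2, 3 of the 26, against 10.1% of all genes. Insig2, which did not pass between lines, averaged 1094 ± 50.5 units at 24 h and 860 ± 30.0 units at 3 h (SD over 4 arrays of different line and treatment) and rose by 0.34 ± 0.04 (limma adjusted p = 3.64e-04). Mvd (0.38), Fdps (0.37), Hmgcs1 (0.29), Dhcr7 (0.29), Srebf2 (0.28) and Nsdhl (0.13) also rose, and Lbr fell by 0.27. Calls not made over all arrays appeared without 1 array for Ebp (lower, 0.0379 without the untreated AML12 array of 3 h and 0.0116 without that of 24 h), and for Mvk (0.0326) and Stard4 (0.0313) without the AML12 array with RA at 24 h. The call of Nsdhl was lost without any one of the 8 arrays (limma adjusted p of 0.0527 to 0.111) and with matched pairs as a block (0.0693). That of Mvd was lost without the v-erbA array with RA at 24 h (0.0561) or at 3 h (0.0518), and that of Srebf2 without the v-erbA array with RA at 24 h (0.0539) or untreated at 3 h (0.0531). The calls of Fdft1 and Msmo1 held when any single array was left out but were lost in some other setting of the processing.

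The other probe sets were read for time as well. Of 8 other fitted probe sets of genes that rose, 7 rose and 1 differed by -0.12 (Mvd). The probe sets of Hmgcs1 rose by 0.30, 0.36 and 0.38 and those of Insig2 by 0.26 and 0.19. For genes not called, 5 of 16 other probe sets rose and 1 fell. Of all 21319 fitted probe sets 3660 rose and 3036 fell with time. Sc5d differed by -0.11 ± 0.05 in its brightest probe set, but another rose by 1.23 ± 0.10, with 217 and 248 units at 24 h in the v-erbA line (RA and untreated) and 306 and 346 units in AML12, against 102 and 110 units at 3 h in the v-erbA line and 89.4 and 124 units in AML12. The third Sc5d probe set rose by 0.31. Stard4 similarly gave 0.12, 0.54 and 0.05, and Npc2 gave -0.02, -0.31 and 0.21.

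**Figure D4:**
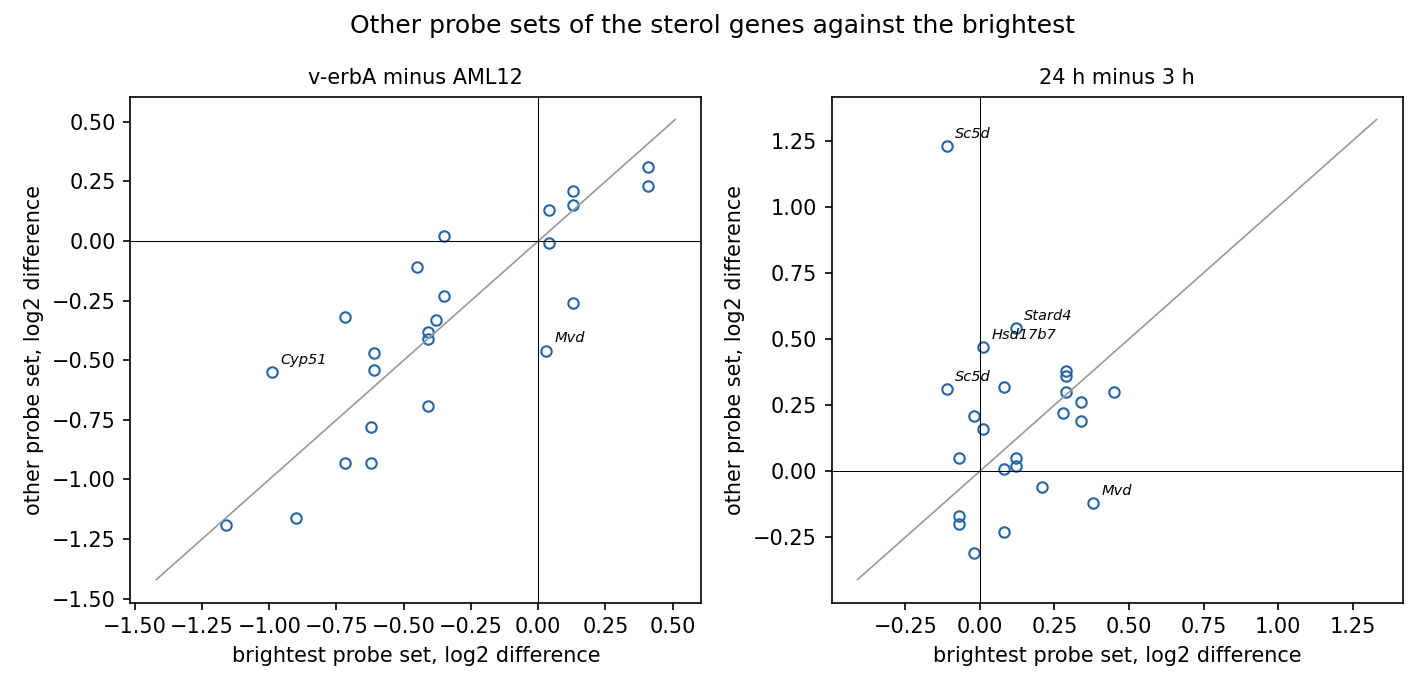
Log2 difference of the 24 other fitted probe sets of the sterol genes (vertical) against the brightest probe set of the same gene (horizontal), for v-erbA minus AML12 (left) and 24 h minus 3 h (right), with the line of equality in grey. On the left most points follow the line, Mvd being furthest off, and on the right Sc5d lies far above it at 1.23.

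Neighbouring pathways were read from lists that were chosen with earlier results of these data known. Of 16 genes of fatty acid synthesis and other SREBP targets 11 fell in the v-erbA line and 0 rose, with a median of -0.36. The stearoyl-CoA desaturase Scd1 fell by 1.75 ± 0.17, the acetyl-CoA synthetase Acss2 by 1.00 ± 0.08, the elongase Elovl6 by 0.62 ± 0.05 and the desaturase Fads1 by 0.58 ± 0.06 (limma adjusted p of at most 3.88e-05). The synthase Fasn (-0.11) and the carboxylase Acaca (-0.09) did not pass. Of 9 genes that process SREBPs or control the turnover of sterol enzymes 2 fell and 3 rose, with a median of 0.05. Erlin1, part of the complex that aids degradation of sterol-regulated proteins in the endoplasmic reticulum, rose by 0.78 ± 0.05, the ubiquitin ligase subunit gene Fbxw7 by 0.37 ± 0.08 and the ubiquitin ligase gene Rnf139 by 0.26 ± 0.04, while Ufd1 fell by 0.38 ± 0.05. The SREBP proteases Mbtps1 (0.05) and Mbtps2 (-0.08) did not pass.

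Of 6 tested genes of the liver X receptor and sterol efflux list 3 fell and 2 rose. The acyltransferase Lpcat3 fell by 0.45 ± 0.04, the lipoprotein receptor Scarb1 by 0.37 ± 0.09 and the receptor Nr1h3 by 0.32 ± 0.08, and the cholesterol exporter Abca1 rose by 0.28 ± 0.06. Of 10 genes of isoprenoid branches 3 fell and 1 rose. Nus1, a subunit of the enzyme that makes dolichol precursors, fell by 0.87 ± 0.05, and the prenyltransferase subunit Rabggtb rose by 0.57 ± 0.04. Among 9 tested genes of bile acid and oxysterol synthesis 4 fell, among them the reductase Akr1d1 by 1.53 ± 0.16, and 1 rose, Ch25h (0.31), while Cyp7a1 (-0.20) and Cyp27a1 (0.00) did not pass. Among all genes tested 26.9% fell and 26.5% rose. In the same comparison 8 of 12 hepatocyte markers fell and 1 rose, with a median of -0.88 and the largest changes in Apoa1 (-2.98) and Serpina1b (1.89), and with summed signals of 27141 to 32692 units in the v-erbA line and 30676 to 44652 units in AML12, and their part in the sterol gene results was not tested. Of the other markers Dcn rose by 1.62, Acta2 rose by 0.68, Col1a2 fell by 0.48 and Cd14 fell by 0.91. With RA over both times 0 genes of these neighbouring lists passed with limma, with 0 to 5 in each list at an unadjusted p under 0.05. Of the markers Hnf4a fell by 0.27 ± 0.05 (limma adjusted p = 0.0462) and Cd14 rose by 0.33 ± 0.04 (0.00612), against calls in 1.17% of all genes. At 24 h alone Scd1 rose with RA by 1.06 ± 0.12 (limma adjusted p = 0.00834), Elovl5, another elongase, by 0.47 ± 0.07 (0.0244), and Akr1d1 fell by 0.82 ± 0.14 (0.0405), 3 genes of the neighbouring lists. At that time 5 of 12 hepatocyte markers fell and 0 rose and Cd14 rose by 0.32, against calls in 1.2% of all genes. At 3 h alone 0 genes of the neighbouring lists passed, against 0.283% of all genes, with 0 to 3 in each list at an unadjusted p under 0.05. With time 6 of the 16 fatty acid genes rose and 3 fell, 4 of the 10 isoprenoid genes rose and 1 fell, 2 of the 6 efflux genes rose and 0 fell, 1 of the 9 SREBP processing genes rose and 1 fell, and 1 of the 9 bile acid genes rose and 0 fell, against 19.5% and 15.2% of all genes.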

How the data were processed

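Biotin-labelled RNA was hybridised to Affymetrix arrays, per the labels. Values are the authors' linear intensity of each probe set; how they summarized and scaled it is not given in the sources used here. Of 45037 probe sets 1 without a value on every array was left out, 34944 named 1 gene in the platform annotation, and 932 that named several and 9160 unnamed were not used. Gene positions were read from RefSeq (GRCm38.p6). Deposited intensities were kept unscaled and transformed to log2(signal + 19.9), the pooled 20th percentile. Genes with at least 2 of 8 arrays above the pooled median of 73.5 units were tested with limma 3.58.1 in R 4.3.3 (trend, Benjamini-Hochberg over all 12015 genes, threshold 0.05). Line, treatment and time formed an additive model with 4 residual degrees of freedom, and each difference of effects added 1 interaction, leaving 3. Scripts were tested on simulated data. Members and lists were chosen with earlier results of these data known. All 26 genes are given; from other lists the largest called v-erbA changes in each direction are named, and others were chosen after their values were seen (such as Alb, Ttr, Fasn, Acaca, Mbtps1, Mbtps2, Cyp7a1, Cyp27a1). The number of arrays limits the precision.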

Additional observations from a re-analysis of the deposited data

How the results depend on the processing

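Results were recomputed with 9 other settings (scaling, offset, dim filter, probe sets, trend, model terms) and without each of the 8 arrays, and, both chosen after seeing the data, with every probe set fitted on its own and with matched pairs of arrays as a block. For v-erbA 17 of the 20 called genes kept call and direction under all 17 of these settings and omissions, and Pmvk, Lbr and Scap lost the call in some. For time 7 of the 12 called genes did so, Fdft1, Msmo1, Mvd, Nsdhl and Srebf2 lost it in some, and Ebp, Idi1, Mvk and Stard4 gained one in some. Without single arrays 17 to 20 of the genes were called for v-erbA, 9 to 13 for time, 0 for RA, 0 for the difference of RA effects between lines or between times, and 0 to 2 for the difference of v-erbA effects between times. Over all genes 5486 to 6284 were called for v-erbA and 3072 to 3913 for time without single arrays. With all 2-way interactions in the model 1 gene passed for RA (Ebp, -0.11) and 1 for the difference of v-erbA effects between times (Msmo1, 0.43), against 0 for each in the models reported above, and the cause was not tested. With the mean of all probe sets Mvd was at -0.21 for v-erbA in place of 0.03 and Sc5d at 0.48 for time in place of -0.11, through the other probe sets given above.

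Counts over all genes also moved. For RA 141 genes passed, 17 without a mean-variance trend, 582 with all 2-way interactions, 260 of the single probe sets and 35 to 142 without single arrays. For the difference of v-erbA effects between times 12 passed, against 24 with median centring, 5 with the stricter dim filter, 7 with the mean of all probe sets, 116 with all 2-way interactions and 1 to 228 without single arrays. For the difference of RA effects between times 2 passed, against 1 with quantile normalization or the higher offset, 0 without a trend, 87 with all 2-way interactions and 0 to 96 without single arrays. For the difference of RA effects between lines 0 passed, against 4 with all 2-way interactions and 0 to 2 without single arrays. With every probe set on its own 11100 passed for v-erbA, against 6421, and 6696 for time, against 4164, among more features. The labels give no replicate numbers, but arrays can be paired by their other factors. In such paired fits 21 sterol genes passed for v-erbA (Tm7sf2 gained, adjusted p = 0.0464 with limma), 11 for time (Nsdhl lost, 0.0693) and 0 for RA. Over all genes 6527 passed for v-erbA, 3703 for time and 149 for RA in these fits.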
